A study of Homo sapiens with 12 samples.

Results

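Introns of at least 5000 nt were followed in MEC1 cells treated with the splicing modulator H3B-8800. An intron entered the set when its event in the deposited splicing table had a length of 5000 nt or more, had at least 20 spliced plus unspliced reads in all 12 samples, and did not have unbalanced reads at its 2 ends in more than 6 samples. Unbalanced ends in 6 samples or fewer thus did not remove an intron. Reads at 1 end that appear only in treated or only in K700E samples can therefore remain in the set. The table held 45000 intron events of 5000 nt or more, of 192965 intron events in all. Of these, 16128 had the reads, 2866 were dropped for balance, and 13262 introns in 5162 genes remained. They ranged from 5000 to 523672 nt with a median length of 9390 nt, and 13261 are introns of a GENCODE 29 transcript. The set comprised 2135 genes with 1 such intron and 733 genes with 5 or more, up to 25 in 1 gene, so introns of the set share genes and transcripts.

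An intron is removed when the U1 particle marks its 5' end and the U2 particle, through its SF3B complex, marks the branch point near its 3' end. In short introns the 2 ends are usually paired across the intron. In long introns they are usually first recognised across the neighbouring exons, which is known as exon definition. SF3B1 is the largest protein of the SF3B complex, K700E is a recurrent SF3B1 mutation of chronic lymphocytic leukemia, and the drug H3B-8800 targets that complex.

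MEC1 is an established human B cell line from a patient with chronic lymphocytic leukemia. The 12 poly(A) RNA samples form 4 groups of 3: wild-type (WT) SF3B1 in DMSO, WT in 75 nM H3B-8800, and the same 2 treatments of K700E cells, each for 6 h. WT replicates 1 and 2 carry no base change in their labels, and WT replicate 3 is a clone with the coding change c.2106G>A. The 3 K700E replicates are separate clones with c.2098A>G, the K700E change, together with c.2106G>A. K700E and WT samples therefore also differ in editing and cloning, and each clone supplied 1 sample in DMSO and 1 in H3B-8800. Retention is the share of reads, in percent, that run from an exon into the intron instead of across the spliced junction. Differences are in percentage points, group values are mean ± SD (n = 3), and coordinates are on hg38.

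The spliced product of a long intron is the junction of its neighbouring exons. Reads over that junction are the spliced side of every value here. The junctions of 3 introns with large rises, 2 with large falls and 2 with nearly constant retention are shown 5′ to 3′, from the GENCODE transcripts. Each gives 15 exon bases on either side of the removed intron, and capitals mark the 3 bases next to it on each side.
PCNT: aggccagagaagCTGCTCtccggaaggaag
PKD2: tagtcttgtgcaTCTTGAcctacggcatga
TMOD2: aagattgacaacCAGAGGcagcagttggga
MBNL1: catttctcccacCAGTTCccatggtgcacg
CCDC14: gaaatgaagattCAGCATcttcagataata
H2AFY: ttaaagatgaccTAGGAAacacgctggaga
CDC123: tacagagacagtAGGGGGaaggtgtggctc

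Between 45840233 and 56676172 reads per library crossed the exon-exon junctions of annotated introns, and the median intron of the set had 145 reads in the shallowest sample and 219 in the deepest. At 172 reads, the median over all values, a level of 10% has a 95% Wilson interval of 6.26% to 15.3%, and a level of 0% allows up to 1.74%, which covers counting error only. All 16 B cell marker genes had a mean over the 12 samples of 1 or more in RPM (spliced reads scaled to the depth of the library), with sums of 6465 to 11090 RPM. Of 15 T and NK cell markers, LCK and GNLY had such a mean, KLRD1, ZAP70 and NKG7 reached 1 RPM in at least 1 sample and CD3G and NCAM1 were at 0, with sums of 88.4 to 203 RPM. Of 11 myeloid markers measured, CD68 had such a mean and ITGAM reached 1.30 RPM in its highest sample, with sums of 1.30 to 7.01 RPM. Of 12 fibroblast and epithelial markers, COL1A1, KRT8, KRT18, CDH1 and VIM had such a mean and EPCAM reached 2.78 RPM in its highest sample. Sums of this list went from 41.2 to 293 RPM, with a mean of 203 RPM in K700E against 66.5 RPM in WT in DMSO. The part of these genes in differences between K700E and WT was not tested.

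The first question was how far long introns were retained under H3B-8800. In DMSO they were almost fully spliced, and H3B-8800 raised their mean retention about as much in either genotype. The mean over the 13262 introns was 0.971%, 1.16% and 1.21% in the 3 WT DMSO samples and 2.70%, 2.92% and 2.89% in the 3 WT H3B-8800 samples. It was 1.16%, 1.18% and 1.15% in K700E in DMSO and 2.76%, 3.16% and 2.42% in K700E in H3B-8800. Every treated sample lay above every DMSO sample, and each of the 6 clones or cultures rose. The group means went from 1.11% ± 0.126 to 2.84% ± 0.121 in WT, and in K700E from 1.16% ± 0.0190 to 2.78% ± 0.367. The rise averaged 1.67 points (p = 0.005, two-sided exact permutation within genotype, the smallest p of 400 arrangements; 0.00625 after Benjamini-Hochberg adjustment over 5 such values). The rise in K700E differed from that in WT by -0.103 points (p = 0.7, exact permutation of clones, where 20 arrangements allow no p below 0.1).

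The rise was carried by a minority of the introns. The median intron went from 0.213% to 0.653% in WT, and in K700E from 0.25% to 0.677%. Introns at 10% or more made up 1.54% of the set in WT in DMSO and 7.02% in WT in H3B-8800, and 1.63% and 6.72% in K700E. Introns at 0% fell from 40.1% of the set to 29.4% in WT, and in K700E from 37.4% to 28.3%. In all, 7899 introns (59.6%) moved by less than 1 point in both genotypes.

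**Figure D1:**
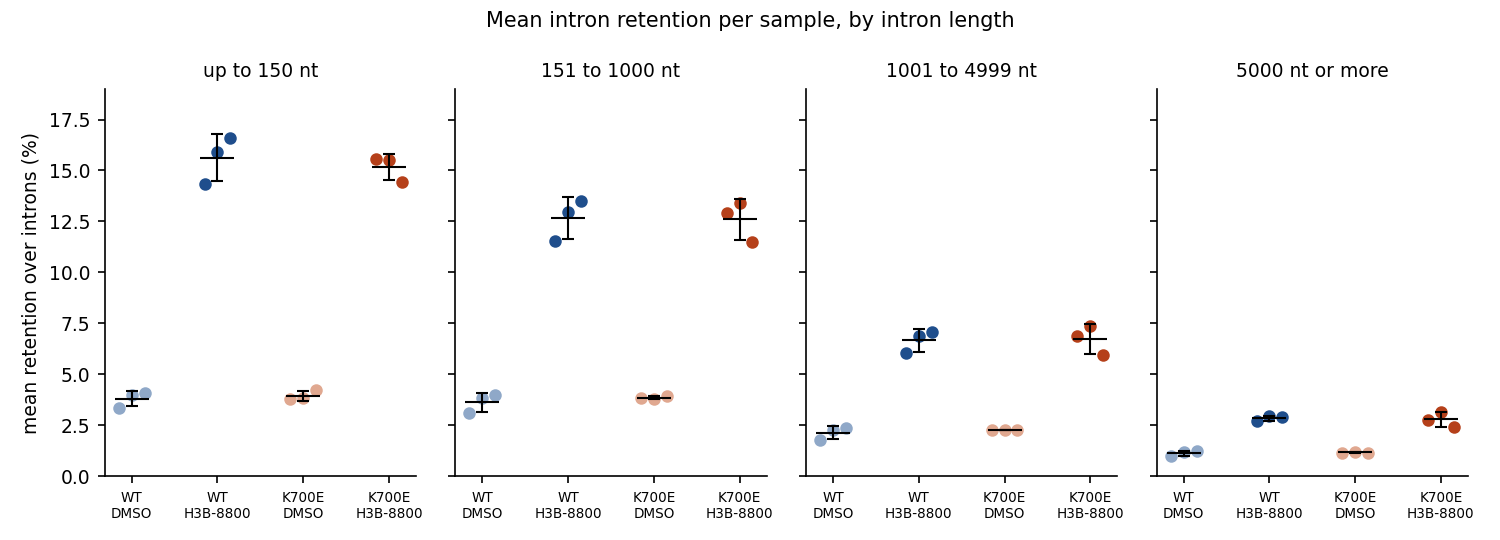
Mean retention (%) over introns of 4 length classes in each of the 12 samples. Points are samples, bars are group mean and SD (n = 3). With H3B-8800, means reached 15.6% in WT for introns up to 150 nt and 2.84% for introns of 5000 nt or more.

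Long introns rose less than shorter ones. Introns over 150 and up to 1000 nt, filtered the same way, went from 3.63% to 12.7% in WT, and in K700E from 3.85% to 12.6%. Long introns minus that class came to -2.51 ± 0.341 points in WT in DMSO and -9.82 ± 0.916 points in WT in H3B-8800. In K700E the values were -2.69 ± 0.0937 and -9.82 ± 0.661 points. The difference between the classes thus changed by -7.22 points with H3B-8800, in the same direction in 6 of 6 clones or cultures (p = 0.005, two-sided exact permutation). The same held within genes. In 4763 genes with a long intron and a shorter one, the long introns went from 1.41% to 3.57% in WT and the shorter introns of the same genes from 2.14% to 6.86%. In K700E the values were 1.47% to 3.52% and 2.26% to 6.88%. The within-gene difference changed by -2.57 points (p = 0.005, two-sided exact permutation), with 6 of 6 clones or cultures in this direction. Long introns also had fewer reads, with a median of 172 against 245 for the other introns.

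Single introns were called when the adjusted p of limma was under 0.05 and the difference was 10 points or more. In WT, 592 long introns (4.46%) were called as retained more with H3B-8800, against 18.9% of all 76188 introns tested. In K700E, 539 (4.06%) were called, against 18.7% of all introns. Both shares lie well under the background. Long introns also started lower, at 1.11% in WT in DMSO against 2.91% for the other introns, and a call needs 10 points. The part of the starting level in the lower shares was not tested. The 2 genotypes shared 450 of the called long introns, in 425 genes, which is 76.0% of the WT calls and 83.5% of the K700E calls. The shared introns went from a median of 2.89% to 23.1% in WT, and in K700E from 2.82% to 21.7%. Only 18 of them rose by 50 points or more in WT and 16 in K700E.

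The share called was lower in each longer class up to 50000 nt, also within the set, and above that length it was slightly higher than in the class before. It was 6.45% in WT and 6.09% in K700E for 7089 introns of 5000 nt to under 10000 nt, and 2.98% and 2.46% for 3461 introns of 10000 nt to under 20000 nt. For 2012 introns of 20000 nt to under 50000 nt it was 1.09% and 0.696%, and for 700 introns of 50000 nt or more 1.43% and 1.14%. Below the set, 13.7% of introns over 1000 nt were called in WT, 27.9% of those over 150 and up to 1000 nt and 36.3% of those up to 150 nt. On the 2 sides of the length limit values were close: the 713 introns in the 250 nt below it went from 1.51% to 4.22% in WT, and the 649 in the first 250 nt above it from 2.02% to 5.07%. The 2 shortest introns of the set, in C12orf73 and in EZR, the gene of the membrane-actin linker ezrin, had 5000 nt. Their WT differences were 1.26 and 9.83 points, under the size limit. The 2 introns nearest outside the limit, in PHF21A and CDCA7L, went from 0.133% to 0.103% and from 0.16% to 0.51%.

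**Figure D2:**
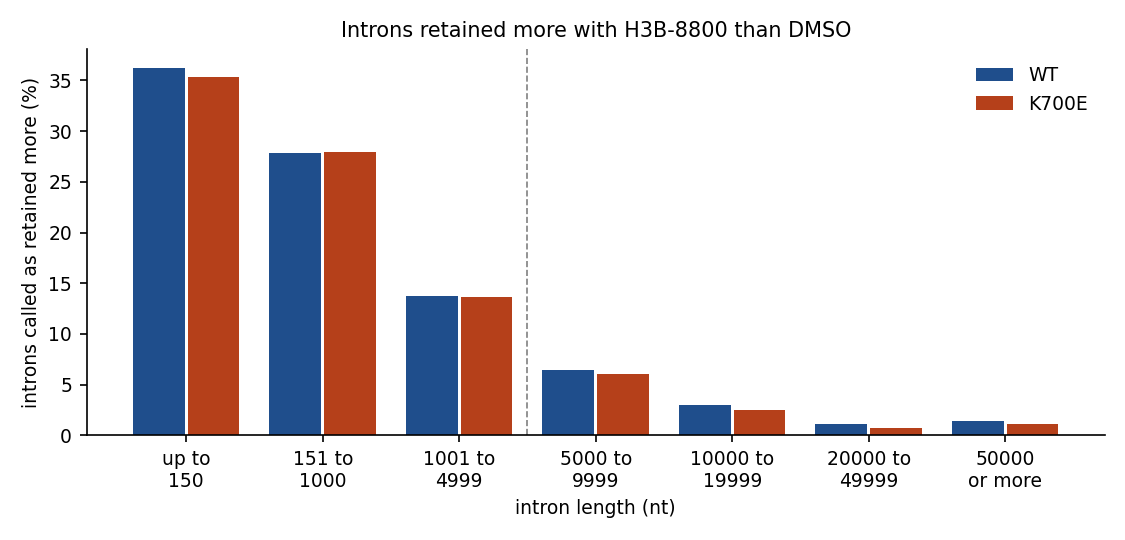
Share (%) of introns called as retained more with H3B-8800 than DMSO, by intron length in nt, in WT (blue) and K700E (red). Classes right of the dashed line form the set of long introns. The share goes from 36.3% in WT at 150 nt or less to 1.43% at 50000 nt or more.

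The table also gives reads in a middle segment of each intron, which retention does not use. These rose less than reads at the ends. Over the 13120 long introns with countable middle positions, middle reads came to 0.516 per 100 exon-exon reads in WT in DMSO and 0.899 in H3B-8800, and to 0.556 and 0.982 in K700E. Reads over an exon-intron end came to 0.622 and 1.496 in WT and to 0.676 and 1.59 in K700E. On the log2 scale, middle reads over exon-exon reads rose by 0.81 (p = 0.005, two-sided exact permutation), in all 6 clones or cultures. The log2 ratio of middle to end reads fell from -0.27 to -0.74 in WT, and in K700E from -0.29 to -0.69 (p = 0.005, two-sided exact permutation, a test chosen after the values were seen), in 6 of 6 clones or cultures. In introns up to 150 nt that ratio went from 0.31 to 0.26 in WT, and in K700E from 0.29 to 0.24. In long introns of 50000 nt or more it went from -0.45 to -1.30 in WT, and in K700E from -0.34 to -1.04. The ratio of the long introns minus that of introns over 150 and up to 1000 nt fell from 0.44 to 0.13 in WT, and in K700E from 0.46 to 0.19 (p = 0.005, two-sided exact permutation, also chosen after the values were seen).

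**Figure D3:**
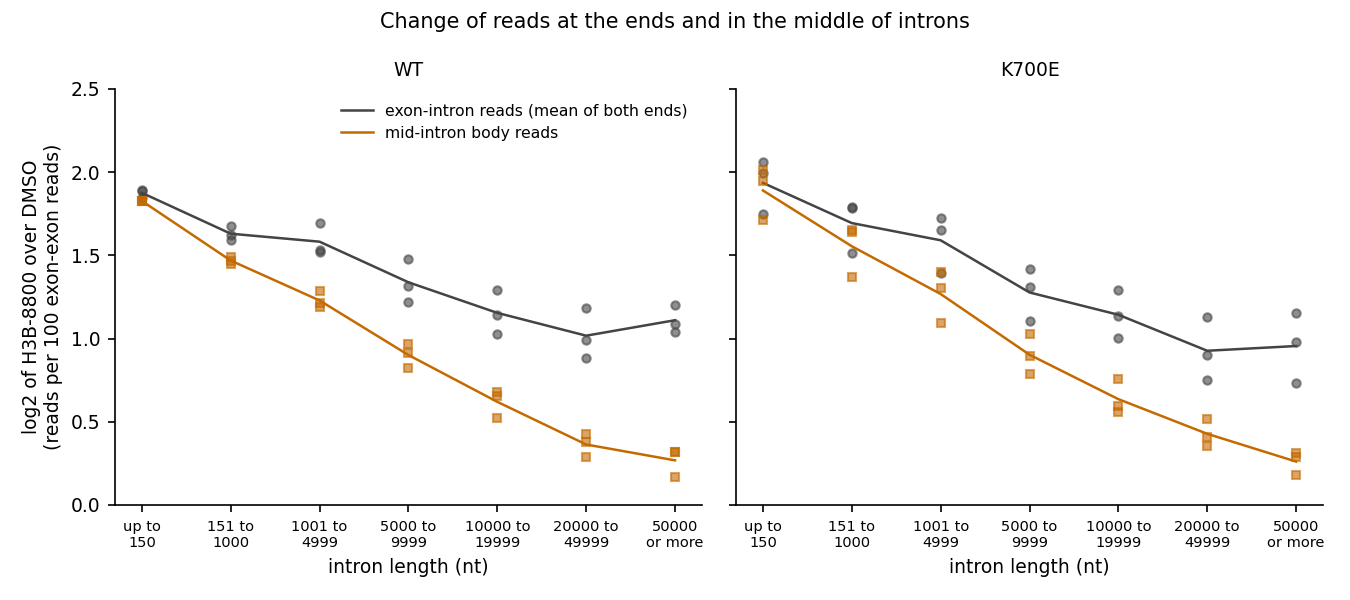
Log2 change with H3B-8800 of exon-intron reads (circles) and middle reads (squares), each per 100 exon-exon reads, against intron length in nt. Points are the 3 replicate pairs of a genotype, lines their means. The 2 lines lie close together at 150 nt or less and part in long introns, where middle reads change less.

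The reads at the 2 ends were also compared. The 5' end held 50.7%, 45.9% and 45.02% of the exon-intron reads of the set in WT in DMSO and 54.4%, 49.5% and 48.5% in WT in H3B-8800. It held 44.9%, 44.1% and 46.1% in K700E in DMSO and 46.4%, 46.2% and 47.4% in H3B-8800. The groups overlapped, though each of the 6 clones or cultures rose. The mean rise was 2.60 points, and it came to 1.70 points without WT H3B-8800 replicate 1. Introns had entered the set by the balance of reads at their 2 ends in these same samples, so this share is given as a description. In 700 introns of 50000 nt or more the 5' share was 72.6% in DMSO and 79.9% in H3B-8800 for WT, and 66.9% and 76.5% for K700E.

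The largest rises were seen in PCNT, which encodes pericentrin, a scaffold of the centrosome. Its 5888 nt intron 21 of 46 (chr21:46391377-46397264, plus strand, coding part) was at 0.76%, 0.72% and 1.87% in WT in DMSO and at 79.9%, 83.8% and 85.5% in H3B-8800. In K700E it was at 0%, 1.05% and 0.86% and then at 80.1%, 74.4% and 68.3%. No treated sample came near a DMSO sample, and the rises were 81.9 points in WT (adjusted p = 1.28e-09) and 73.6 points in K700E (adjusted p = 1.79e-09). Exon-exon reads fell from a mean of 68.7 to 10.3 in WT. The exon-intron reads lay mostly at the 3' end, where they went from 1.67 to 98.7, against 0 to 10.0 at the 5' end.

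PKD2 encodes polycystin-2, a cation channel. Its 16648 nt intron 2 (chr4:88019572-88036219) was at 3.80%, 9.09% and 10.3% in WT in DMSO and at 66.7%, 66.0% and 84.0% in H3B-8800. In K700E it was at 5.62%, 6.19% and 6.38% and then at 66.7%, 72.2% and 82.4%. The groups did not overlap, and the rises were 64.5 points (adjusted p = 1.37e-06) and 67.7 points (adjusted p = 7.82e-07). At the 5' end, reads did not go up in WT (2.33 and 2.00 per sample), while exon-exon reads went from 39.3 to 4.67. By the 5' end alone the K700E difference was 4.24 points and not called (adjusted p = 0.106). Another intron of PKD2, of 5120 nt, was retained less in K700E, from 14.2% to 3.76%.

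TMOD2 encodes a tropomodulin that caps actin filaments. Its 8036 nt intron 8 (chr15:51798341-51806376, plus strand) was at 0%, 0% and 0.97% in WT in DMSO and at 48.7%, 61.8% and 45.4% in H3B-8800, and in K700E at 1.93%, 0% and 0% and then at 75.6%, 64.2% and 76.9%. The treated K700E samples lay above the treated WT samples, but the difference of the 2 effects had an adjusted p of 0.976 in limma. Exon-exon reads were few, 51.3 and 10.3 per WT sample.

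Large shared rises were also seen in PRR5, KCTD13, MRM1, AGFG2, SBF1 and MIGA2. PRR5 encodes a subunit of the mTORC2 kinase complex, and its 5095 nt intron 4 went from 7.27% ± 3.28 to 73.0% ± 15.1 in WT, and in K700E from 10.6% ± 3.79 to 67.5% ± 6.80. The 11140 nt intron of KCTD13, an adaptor of the CUL3 ubiquitin ligase, went from 28.7% ± 3.94 to 82.5% ± 7.37 and from 20.2% ± 3.51 to 88.4% ± 10.1. MRM1, a mitochondrial rRNA methyltransferase gene, went from 11.6% ± 4.33 to 71.6% ± 16.3 and from 18.7% ± 2.46 to 76.3% ± 6.94. In both of these the exon-intron reads fell at either end in WT (KCTD13 from 31.7 to 13.3 at the 5' end, MRM1 from 21.7 to 14.7), while exon-exon reads fell further, from 67.3 to 3.00 and from 135 to 5.33. In AGFG2 and MIGA2 the reads rose at both ends. AGFG2 went from 3.92% ± 2.35 to 67.2% ± 4.71 in WT, and MIGA2, which encodes an outer mitochondrial membrane protein, from 1.40% ± 0.596 to 57.0% ± 4.42. The first intron of SBF1 rose from 2.02% ± 1.28 to 56.6% ± 7.39 with 0 reads at its 5' end in WT in either treatment and 55.7 at its 3' end in H3B-8800. By the 5' end alone its difference was 0 points in WT and 1.04 points in K700E, and it was not called. SBF1 encodes a myotubularin family member without phosphatase activity.

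**Figure D4:**
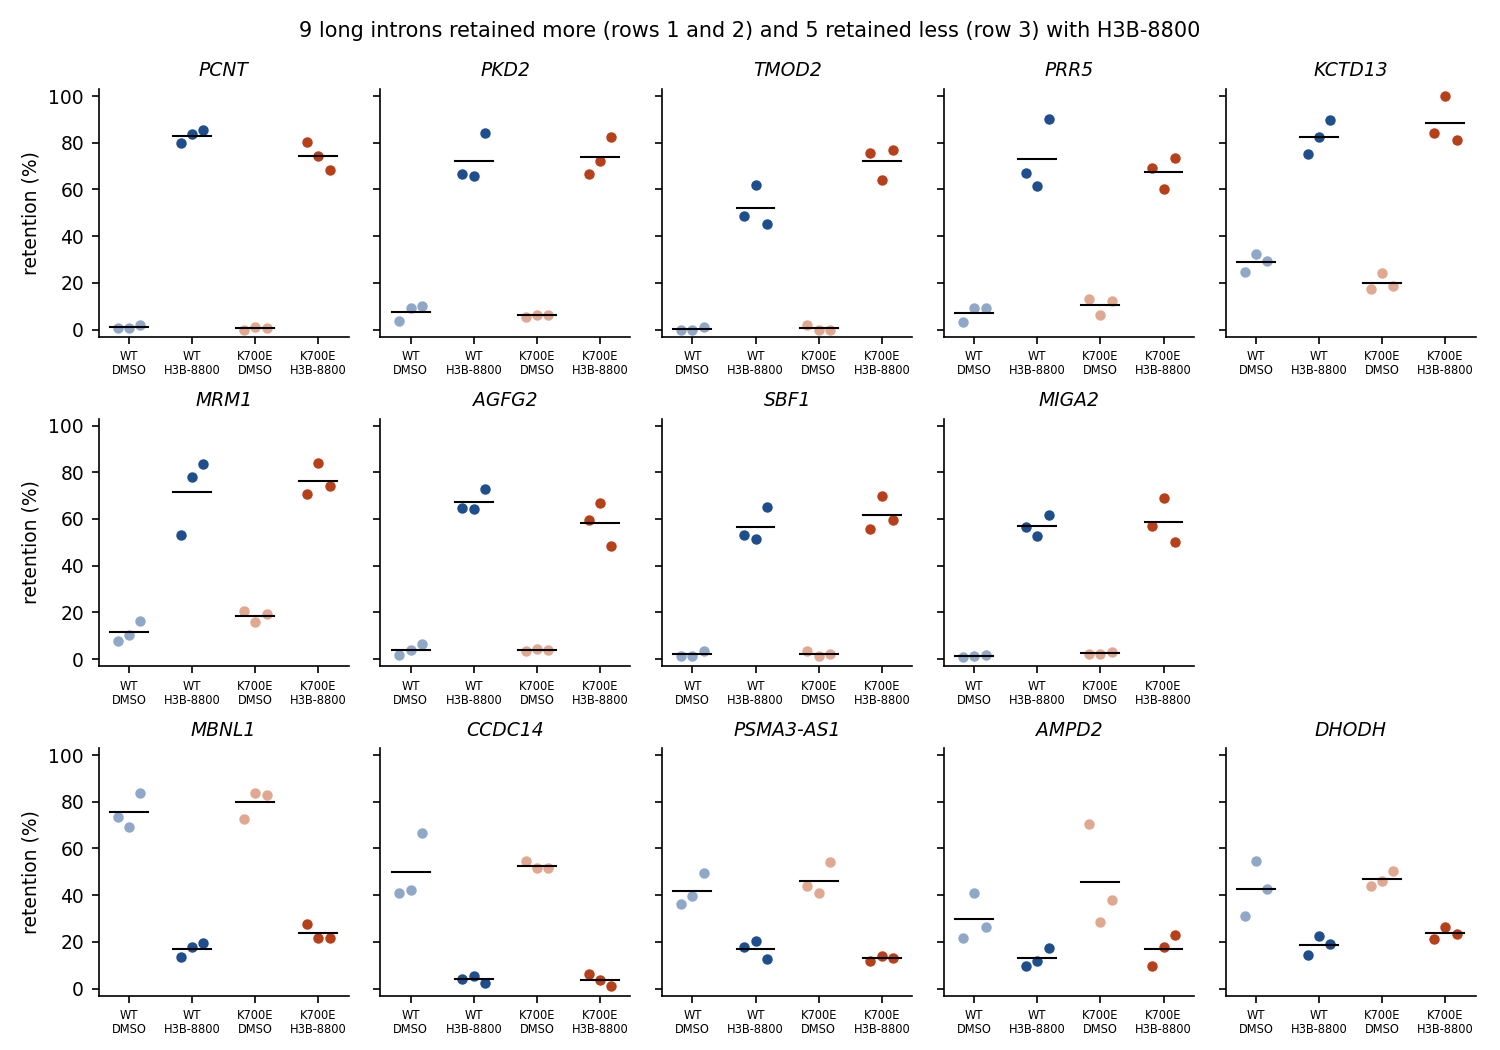
Retention (%) of 14 long introns in the 12 samples, as points, with group means as lines. The upper 2 rows hold 9 introns of coding parts with large rises called in both genotypes, PCNT first, and row 3 the 5 largest falls, MBNL1 first. DMSO and H3B-8800 points of a genotype do not overlap in the upper 2 rows.

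Many of the called introns were not called at each end taken alone. An end can miss the call with a rise that stays under the size limit. The counts that follow are therefore not counts of introns with reads at a single end. Of the 592 introns retained more in WT, 284 were also called with the 5' end alone and with the 3' end alone, 176 with the 5' end only, 125 with the 3' end only and 7 with neither. In K700E the numbers were 256, 123, 156 and 4 of 539. Of the 450 shared introns, 200 were called at both ends in both genotypes. Introns with an annotated transcript end inside them were called in 7.07% of 2448 cases in WT and the others in 3.87%. Where an annotated exon runs over the 5' boundary 8.01% of 1660 were called, and where one runs over the 3' boundary 8.68% of 1579. The part of such transcripts in the calls was not tested.

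Both sides of the ratio moved in the shared introns. In WT, depth-scaled exon-intron reads went up by a median of 2.30 on the log2 scale and exon-exon reads went down by 1.08 (median -1.08), and in K700E the medians were 2.38 and -0.92. Over all long introns the medians were 0.50 and -0.17 in WT and 0.50 and -0.14 in K700E. Middle reads, here not scaled to depth, were higher with H3B-8800 in both genotypes in 379 of the 448 shared introns with countable middle positions. In the whole set this held for 5448 of 13120. Every treated library had fewer exon-exon reads than every DMSO library, which lowers both counts. In poly(A) RNA, fewer transcripts made and fewer that survive cannot be told apart. Exon-exon reads can also fall where a neighbouring exon is skipped, since they count only the junction of the 2 neighbours. A neighbouring exon was called as skipped in WT for 4378 long introns, of which 5.37% were called as retained more. Of 7799 with a tested neighbour and no such call, 3.95% were. The part of exon skipping in the calls was not tested.

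The place of an intron in its transcript went with its change. In points, last introns changed most: 939 of them rose by a mean of 2.65 points in WT and 2.65 in K700E, and 6.92% and 7.14% were called. The 10133 internal introns rose by 1.83 and 1.71 points, with 4.69% and 4.27% called. The 2189 first introns rose by 0.811 and 0.771 points, with 2.33% and 1.74% called. First introns are longer (median 14932 nt against 8875 nt for internal and 8362 nt for last ones), but the order was the same under 10000 nt, where the mean rises in WT were 1.57, 2.35 and 3.35 points for first, internal and last introns. Last introns also started higher. In WT they went from 2.31% to 4.96%, internal introns from 0.989% to 2.82% and first introns from 1.18% to 1.99%. The part of the starting level in this order was not tested. The values are means over introns of the same samples and were not tested.

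**Figure D5:**
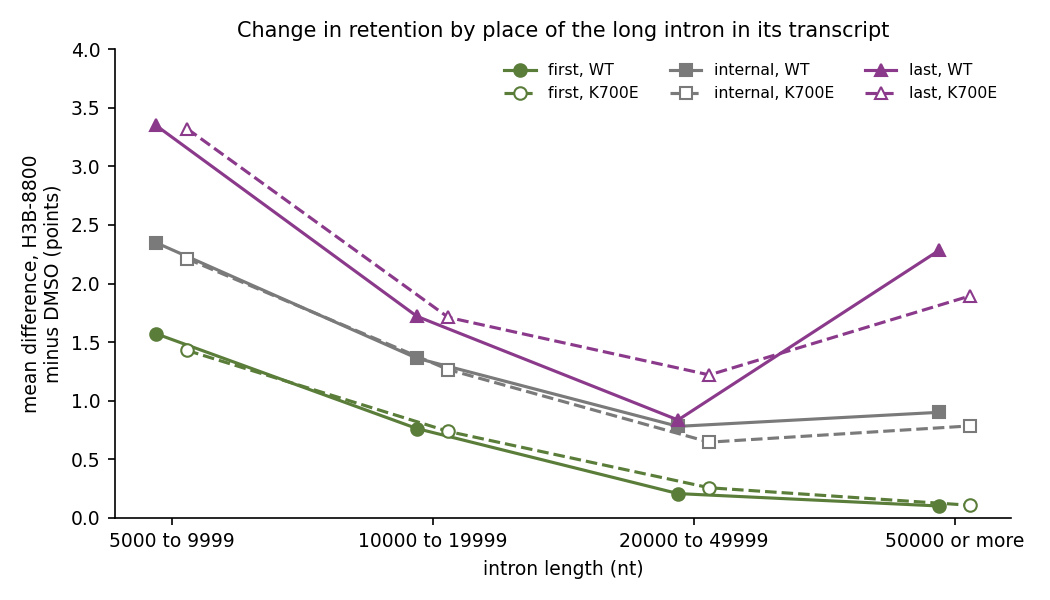
Mean difference in retention, H3B-8800 minus DMSO in points, of first, internal and last long introns by length in nt. Filled symbols and solid lines are WT, open symbols and broken lines K700E. Under 10000 nt last introns had the largest mean difference, 3.35 points in WT, and first introns the smallest, 1.57 points; the longest class of last introns holds 43 introns.

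Neighbouring sequence was compared as a description. Exons next to the 449 annotated shared introns had a median GC content of 50% upstream and 49.2% downstream, against 46.5% and 44.2% for the whole set. Among introns of the set under 10000 nt the same values were 50% and 49.2% against 45.5% and 44.0%. Of 2563 introns whose neighbouring exons averaged 55% GC or more, 7.06% were called in WT, and of 2635 with under 40% GC, 3.38% were. The exon before the intron ended in G, the usual last base, in 80.6% of the shared introns and 82.2% of the set. The first base of the next exon was G in 49.4% and 47.7%. Neighbouring exons were of like length, with medians of 125 and 134 nt against 131 and 129 nt. The set's introns at 1% to 5% in WT in DMSO were called more often in WT (11.7% of 2581) than those above 0% and under 1% (1.67% of 7185) or at 0% (0.308% of 2918). The share was higher still for introns at 5% to 20% (27.5% of 513) and over 20% (30.8% of 65).

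Genes with several long introns mostly had few of them called. Of all long introns, 4.46% were called as retained more in WT and 4.06% in K700E. Few calls per gene are likely at these shares alone, so the counts are given as a description. Of the 733 genes with 5 or more, 583 had no intron called in either genotype, 139 had at least 1 called as retained more in WT, and in 0 were most of them called. UBE4B and SECISBP2, named after their values were seen, had the most shared calls. UBE4B encodes a ubiquitin ligase, and 4 of its 8 long introns rose in both genotypes, to between 10.3% and 15.4% in WT from under 1%. SECISBP2 encodes a factor of selenoprotein synthesis, and 3 of its 3 long introns rose, to 44.0%, 30.6% and 21.7% in WT from 12.1%, 0.493% and 4.40%.

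Genes of B cell receptor signalling, which relays antigen contact through SYK and BTK, held 129 long introns in 29 genes. Of these, 3 (2.33%) were called as retained more in both genotypes, in INPP5D, SYK and BLNK. The shares of all long introns were 4.46% in WT and 4.06% in K700E. The median difference of the 129 introns was 0.170 points in WT, against 0.267 over the whole set. INPP5D encodes the inositol phosphatase SHIP1, and its 5749 nt intron 25 of 26 went from 1.23%, 2.34% and 2.32% to 25.3%, 28.9% and 27.1% in WT and from 1.23%, 1.51% and 2.67% to 22.4%, 31.1% and 27.9% in K700E. The groups were well separated (adjusted p = 1.72e-07 and 1.49e-07), and reads rose at both ends, from 5.00 to 67.7 at the 5' end in WT. SYK, the kinase next to the receptor, went from 1.72% ± 1.01 to 18.1% ± 5.15 in WT, and in K700E from 4.75% ± 0.660 to 21.7% ± 6.45.

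In the NF-kappaB and Toll-like receptor list, 5 of 42 introns (11.9%) were called as retained more in both genotypes, in TAB1, RELB, CHUK, TRAF1 and TANK, against 4.46% of all long introns in WT and 4.06% in K700E, and 1 intron, in IKBKB, fell in K700E. The first intron of TAB1, an activator of the kinase TAK1, went from 2.37% ± 0.949 to 26.3% ± 3.71 in WT, and in K700E from 1.17% ± 0.807 to 25.02% ± 7.37, and by the 5' end alone the WT difference was 7.37 points. RELB, a subunit of NF-kappaB, rested on few reads: it was at 0%, 0.7% and 0% and then at 5.47%, 55.5% and 1.92% in WT. Without WT H3B-8800 replicate 2, its WT difference of 20.7 points came to 3.46 points and was not called. In K700E its difference was 22.1 points, and it was not called without any 1 of 4 libraries (DMSO replicates 1 and 3, H3B-8800 replicates 1 and 3; 16.1 to 21.4 points).

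B lineage transcription factors, which set the identity of B cells, held 92 long introns. In WT 0 were called as retained more and in K700E 1 (1.09%), against 4.46% and 4.06% of all long introns. The median differences of the 92 introns were 0.215 points in WT and 0.140 in K700E. MEF2D went from 4.74% ± 1.44 to 12.9% ± 0.430 in WT, under the size limit, and from 3.98% ± 0.386 to 16.7% ± 1.59 in K700E (adjusted p = 7.32e-06). RUNX3 went from 2.16% ± 1.06 to 11.1% ± 2.82 and from 2.84% ± 0.752 to 12.7% ± 2.90, differences of 8.92 and 9.86 points that stayed under the limit. They passed it without WT H3B-8800 replicate 1 (10.2 points) and, in K700E, without DMSO replicate 2 (10.2 points), H3B-8800 replicate 1 (11.1 points) or H3B-8800 replicate 3 (10.2 points). By the 3' end alone they came to 12.7 and 14.2 points. Its exon-exon reads were higher with H3B-8800, at 949 against 563 in WT.

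Apoptosis regulators held 45 long introns. Of these, 3 (6.67%) were retained more in WT and 2 (4.44%) in K700E, against 4.46% and 4.06% of all long introns. DFFB, the nuclease that cuts DNA in apoptosis, went from 31.5% ± 3.75 to 68.0% ± 9.21 in WT, and in K700E from 27.4% ± 9.13 to 70.4% ± 12.7. BIRC6, a large inhibitor of apoptosis with ubiquitin ligase activity, went from 0.863% ± 0.440 to 19.8% ± 1.99 and from 0.790% ± 0.223 to 17.7% ± 3.72.

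DNA damage response and repair genes had 12 of 159 long introns (7.55%) retained more in WT and 10 (6.29%) in K700E, against 4.46% and 4.06% of all long introns, with 8 of them shared, and 1 retained less in WT, in FANCI. Their median difference was 0.483 points in WT. The 7849 nt intron 35 of ATR, the kinase that senses replication stress, was at 3.45%, 6.22% and 7.36% in WT in DMSO and at 36.9%, 46.4% and 57.6% in H3B-8800. In K700E it was at 5.06%, 8.16% and 9.06% and then at 58.5%, 70.8% and 64.1%. All treated samples lay above all DMSO samples, with adjusted p values of 2.21e-06 and 6.24e-07. BLM, a DNA helicase, went from 5.17% ± 0.519 to 28.2% ± 3.65 and from 6.53% ± 1.16 to 27.5% ± 2.63.

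Chromatin regulators had 11 of 221 long introns (4.98%) retained more in WT and 9 (4.07%) in K700E, near the shares of the whole set. EP400, a chromatin remodelling ATPase, went from 0.840% ± 0.820 to 38.2% ± 9.17 and from 1.68% ± 0.691 to 29.4% ± 2.02.

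Spliceosome and splicing regulators had 2 of 85 long introns (2.35%) retained more in either genotype, in RBM5 and CELF2, and 1 retained less, in MBNL1. Of all long introns, 4.46% were called as retained more in WT and 4.06% in K700E. RBM5, a regulator of exon choice, went from 2.62% ± 0.365 to 26.2% ± 2.52 in WT, and in K700E from 3.22% ± 0.263 to 29.7% ± 0.520, with like numbers of reads at both ends (84.3 and 88.7 per treated WT sample).

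Cell cycle and mitosis genes had 3 of 144 long introns (2.08%) retained more in each genotype, 1 of them shared. The whole set had 4.46% retained more in WT and 4.06% in K700E. CEP128, a centriole protein gene, went from 6.63% ± 3.75 to 25.9% ± 7.68 and from 1.85% ± 0.461 to 27.9% ± 12.9, with 0 reads at its 3' end in WT. By the 3' end alone its differences were 0 and 0.872 points and were not called. CENPE, the kinetochore motor, was called only in K700E (0.227% ± 0.393 to 16.1% ± 7.43). In WT it went from 0% to 6.92% ± 1.52, and the difference of the effects had an adjusted p of 0.970.

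Genes of MAPK, PI3K and mTOR signalling had 7 of 167 (4.19%) retained more in WT and 5 (2.99%) in K700E. Of all long introns, 4.46% were retained more in WT and 4.06% in K700E. PIK3C3, the lipid kinase of autophagy, went from 2.23% ± 1.71 to 30.2% ± 5.28 in WT, and PIK3C2A, a class II PI3K, from 4.70% ± 2.55 to 26.0% ± 6.65. Among DOCK, GEF, GAP and actin regulators, 5 of 222 (2.25%) were retained more in WT and 6 (2.70%) in K700E, and CDC42SE2 was retained less in both. SRGAP2 went from 1.50% ± 0.506 to 31.5% ± 5.36 in WT.

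Of 41 genes known for cryptic splicing in SF3B1 mutants, 19 held 58 long introns. In both genotypes 1 (1.72%) was called as retained more, against 4.46% and 4.06% of all long introns. This intron lies in TTI1, a partner of the PI3K-like kinases. It went from 4.08% ± 0.208 to 40.9% ± 6.99 in WT, and in K700E from 9.35% ± 0.955 to 33.0% ± 11.6. MAP3K7, which encodes TAK1, stayed under the size limit in its first intron (0.553% ± 0.325 to 9.24% ± 1.54 in WT). Genes used as B cell markers gave 29 long introns, of which 2 (6.90%) were called in both genotypes, in FCER2 and BLNK. T and NK cell markers gave 2, of which 0 were called. The myeloid, fibroblast and epithelial markers held 0.

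Few long introns were retained less with H3B-8800. In WT 23 (0.173%) were called, against 0.219% of all introns, and in K700E 21 (0.158%), against 0.224%. The 2 genotypes shared 16, and 28 were called in either. Of the 28, 19 (67.9%) contain an annotated exon of the same gene, against 32.5% of the whole set. Depth-scaled exon-exon reads rose in 24 of the 28 in WT, by a median of 1.13 on the log2 scale, while exon-intron reads fell in 19. A call of a fall needs a level of at least 10% in DMSO in the genotype where it is made.

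The largest fall was in MBNL1, which encodes a regulator of alternative splicing. Its 8493 nt intron 7 (chr3:152447774-152456266, plus strand, coding part) was at 73.6%, 69.4% and 83.6% in WT in DMSO and at 13.7%, 17.8% and 19.6% in H3B-8800. In K700E it was at 72.7%, 83.8% and 82.7% and then at 27.8%, 21.6% and 21.5%. The groups did not overlap, and the falls came to -58.5 points (adjusted p = 4.06e-07) and -56.1 points (adjusted p = 8.97e-07). Unspliced reads did not fall: those at the 5' end went from 10.0 to 76.3 and those at the 3' end from 31.3 to 146 in WT. Reads over the exon-exon junction went from 6.33 to 525 in WT, and in K700E from 6.33 to 450. This intron contains an annotated exon of MBNL1, so reads over its outer junction can also come from transcripts that skip that exon. The part of such skipping in the fall was not tested. The introns of CCDC14, PSMA3-AS1, DHODH and AMPD2 described next contain an annotated exon as well.

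CCDC14, a gene of centriolar satellites, behaved otherwise. Its 6913 nt intron 4 (chr3:123949133-123956045, minus strand, coding part) was at 40.9%, 42.3% and 66.5% in WT in DMSO and at 4.16%, 5.26% and 2.49% in H3B-8800, and at 54.5%, 51.5% and 51.7% and then 6.28%, 3.50% and 1.21% in K700E. All treated samples were below all DMSO samples (adjusted p = 6.28e-06 and 3.11e-06). Here reads at the 5' end went from 28.0 to 5.33 and exon-exon reads from 34.7 to 128 in WT. PSMA3-AS1, a noncoding RNA antisense to a proteasome gene, went from 41.7% ± 7.12 to 17.0% ± 3.85 in WT, and since the use of strand in the counting is not given, reads of the 2 strands may be mixed. DHODH, an enzyme of pyrimidine synthesis, went from 42.7% ± 11.8 to 18.5% ± 4.08. AMPD2, an AMP deaminase gene, was called in K700E (45.5% ± 22.0 to 16.8% ± 6.68) and not in WT (29.7% ± 10.2 to 12.95% ± 4.02, adjusted p = 0.0524), with an adjusted p of 0.959 for the difference of the effects. The K700E call was lost without K700E DMSO replicate 1 (-16.3 points) and without K700E H3B-8800 replicate 1 (-25.1 points).

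Introns with many reads and steady retention were also present. H2AFY, which encodes the histone variant macroH2A1, had 2340.3 exon-exon reads per WT DMSO sample over its 6888 nt intron 6 (chr5:135346058-135352945, minus strand). It was at 1.78%, 2.67% and 3.26% in WT in DMSO and at 2.61%, 2.82% and 3.44% in H3B-8800, and at 4.26%, 3.13% and 2.66% and then 4.46%, 3.04% and 3.11% in K700E. The samples overlapped, and the differences were 0.387 and 0.187 points (adjusted p = 0.514 and 0.829). CDC123, a factor of translation initiation complex assembly, has a 7663 nt intron 10 (chr10:12238486-12246148, plus strand) that went from 1.08% ± 0.298 to 1.59% ± 0.339 in WT. TIMM17A, a subunit of the mitochondrial import machinery, went from 2.92% ± 0.997 to 1.93% ± 0.265.

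The longest introns belong to IMMP2L, FHIT and ARHGAP6. IMMP2L, a mitochondrial peptidase gene, has an intron of 523672 nt that was at 0.267% ± 0.462 and 0.293% ± 0.254 in WT. FHIT, a gene at a fragile site, has one of 522707 nt at 3.64% ± 1.66 and 6.63% ± 5.33. ARHGAP6, which encodes a GTPase activating protein, has a first intron of 409533 nt that went from 2.07% ± 0.369 to 7.20% ± 2.42 in WT, with 19.7 reads at its 5' end and 0 at its 3' end in H3B-8800. None of the 3 was called in either genotype.

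The 4 highest introns in WT in DMSO were at 96.0% or more there. The intron of the noncoding gene RP11-417O11.5 was at 100% in all 12 samples, with 0 exon-exon reads. ASMTL was at 97.85% ± 3.72 in WT in DMSO and 99.4% ± 0.976 in H3B-8800, and RP4-622L5.2 at 97.5% ± 0.467 and 99.4% ± 0.277. CYHR1 went from 96.0% ± 3.44 to 84.9% ± 5.49 in WT, a call (adjusted p = 0.0392) that was lost in 4 of the 6 fits without 1 WT library (-9.35 to -10.2 points).

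The last comparisons set K700E against WT. In DMSO, 3 long introns were retained more in K700E, against 0.0473% of all introns, and 1 was retained less, against 0.0328%. All 3 that were higher had their reads at the 3' end. ARMC9, a cilium gene, was at 0.33%, 0.20% and 0.19% in WT and at 19.6%, 19.2% and 22.0% in K700E (adjusted p = 9.31e-06), with 85.7 reads per K700E sample at the 3' end and 0.667 at the 5' end of this last intron. ITSN2, an endocytic scaffold gene, was at 0% in all 3 WT samples and at 16.2%, 11.3% and 10.4% in K700E (adjusted p = 0.000266), with 20.3 reads at the 3' end and 0 at the 5' end. DGCR2, which encodes an adhesion receptor, was at 1.98%, 2.02% and 2.95% in WT and at 15.2%, 11.5% and 14.7% in K700E (adjusted p = 0.000363), with 70.0 reads at the 3' end and 7.33 at the 5' end. With H3B-8800, DGCR2 reached 14.9% ± 3.75 in WT and 15.4% ± 2.22 in K700E. WT and K700E did not overlap in any of these, and by the 5' end alone 0 long introns were called as higher in K700E.

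DCAF16, a substrate receptor of a ubiquitin ligase, was lower in K700E. The first intron of its transcript, 5221 nt in the 5' UTR, was at 27.3%, 44.9% and 45.4% in WT and at 10.5%, 7.01% and 7.24% in K700E in DMSO (adjusted p = 0.000558). With H3B-8800 it stood at 75.5%, 69.5% and 76.3% in WT and at 10.4%, 13.6% and 13.0% in K700E. The rise in WT was 34.6 points and in K700E 4.08 points, but the difference of these effects, -30.5 points, had an adjusted p of 0.650. The K700E value in DMSO was not called when the 6 DMSO samples were fitted alone.

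The H3B-8800 effect differed between genotypes by the logit test of limma in 0 of the 13262 long introns, against 0.00131% of all introns. At an unadjusted p under 0.05 there were 540 of the 13262, against 14966 of all 252137 events tested. The test on percent values called 4 long introns. LTN1, which encodes a ubiquitin ligase of stalled ribosomes and was picked here after its values were seen, went from 31.0% to 13.2% in WT, and in K700E from 29.6% to 30.9%, with an adjusted p of 0.530 for the difference. The mean retention in DMSO differed by 0.0465 points between K700E and WT (p = 0.9, exact permutation, smallest possible 0.1).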

How the data were processed

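The authors deposited 1 table with the retention or inclusion of each event as a percent, per sample, beside a text of read scores, raw junction reads and corrected spliced and unspliced reads. The submitters' processing notes name cutadapt 2.4 and hg38; the aligner, the event tool and the layout of that text were not stated in any source used here, and the fields of the text were identified from the values and from GENCODE 29 exons. Values are ratios within a sample. A further 36 columns of single runs were not used. Members, gene lists and named genes were chosen with earlier results of these data known.

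Each event's logit, log2 of unspliced plus 0.5 over spliced plus 0.5 reads, entered limma 3.58.1 (R 4.3.3) with 252137 events and 4 groups, with a variance trend on the reads of the rarer side. An event was called at a p under 0.05, adjusted by Benjamini-Hochberg over all events, and a difference of 10 points. A long intron can pass the p alone with a very small difference (1780 did in WT with under 1 point), so size was required. On simulated data, 72 of 100 introns changed by 15 points and 99 of 100 changed by 30 points were recovered in the H3B-8800 comparison of WT, with 30 false calls among 251937 unchanged events. The simulation changed only these introns and used an assumed beta-binomial spread between samples (rho 0.01). In the data, 140221 events had an unadjusted p under 0.05 in this comparison by limma. The simulated numbers therefore do not give the error of the real calls. Values per sample were tested by exact permutation within genotype. Replicates were paired by the culture or clone in the labels, and deviations of pairs correlated by 0.015 to 0.070. P-values measure the spread between these cultures and clones. The named introns followed a rule: the 10 largest shared rises, the 5 largest falls, calls between genotypes, the 3 longest, the 4 highest, 3 steady ones, 2 per gene list and those at the length limit. Some introns named by this rule are not reported here. No genome was used, so intron sequence is not shown.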

Additional observations from a re-analysis of the deposited data

Results flagged for a closer look

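Introns of 5000 nt or more left out for unbalanced ends, 2866 in all, also changed: their mean retention was 16.3% in WT in DMSO and 21.3% in H3B-8800, and 16.4% and 20.9% in K700E, a mean rise of 4.68 points with 6 of 6 clones or cultures rising (p = 0.005, two-sided exact permutation). They enter none of the comparisons above and were looked at because they lay outside the set.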

How the results depend on the processing

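No called difference of a named intron or group of introns changed sign under any alternative run, but some came to 0 points with 1 intron end alone. By the 5' end these were SBF1 in WT and ITSN2 in K700E against WT, and by the 3' end CEP128 in WT. Over 108 differences of 52 named introns and 2036 alternatives, 48 lost a call, 23 of them with 1 intron end alone, and 33 gained one. Counts of calls followed the definition of a call and of the set. Introns retained more in WT (592) came to 1243 at 5 points, 319 at 15 points, 293 with 1 intron per gene, 135 at 10000 nt or more, 1067 without the balance rule, 204 with unbalanced ends allowed in no sample and 284 when each end had to pass alone, the last chosen after seeing the data. For K700E (539) the same settings gave 1127, 303, 285, 107, 969, 197 and 256, and 4000 nt or more gave 809. Introns retained less in WT (23) came to 51, 10, 9, 6, 58 and 10 under the first 6 of these settings, and in K700E (21) to 49, 12, 8, 6, 50 and 10, with 32 by the 3' end alone. Introns higher in K700E in DMSO (3) came to 10 at 5 points, 1 at 15 points, 0 with 1 per gene, 12 without the balance rule, 0 with the strict one, 0 by the 5' end and 9 by the 3' end. The 1 lower intron came to 2 at 5 points, 0 at 10000 nt or more, 3 without the balance rule and 0 with the 6 DMSO samples alone. The test on percent values called 4 differences of effect. Leaving out 1 library gave 568 to 629 and 19 to 25 calls in WT, 481 to 604 and 21 to 26 in K700E, 3 to 4 and 1 between genotypes and 0 differences of effect.

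The clone as replicate block gave 591 and 23 calls in WT, 544 and 21 in K700E and 0 differences of effect, and it changed no call of a named intron. No paired analysis was possible because K700E and WT clones share no pairing for the comparison of genotypes. The rise of the 5' share of end reads, which the choice of the set bears on, was 2.60 points with and without the block, 2.17 points as a mean over introns, 2.63 points at 4000 nt or more, 1.72 points with 1 intron per gene and 1.70 to 3.47 points without 1 library. Mean retention rose by 1.58 to 1.76 points and middle reads by 0.74 to 0.87 on the log2 scale without 1 library. The cause of these shifts was not tested. Depth limits the introns with few spliced reads left, 3.00 to 44.7 per treated WT sample in the 10 largest rises, and levels under 1.74% at the median depth.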
